A study of Mus musculus with 11 samples.

Results

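The respiratory chain was followed through 95 genes whose names mark them as subunits of the electron transport complexes or of ATP synthase, taken by name from 3 deposited count tables that held 16507, 14267 and 14910 genes. The name pattern covered the Nduf a, b, c, s and v subunits of complex I, Sdha to Sdhd of complex II, the Uqcr subunits of complex III, Cox4 to Cox8 of complex IV, the Atp5 subunits of complex V and the mitochondrial genes whose names begin mt-Nd, mt-Co, mt-Cyt or mt-Atp, and pseudogene names ending in -ps were left out. The same 95 names were found in every table, 82 of them nuclear and 13 mitochondrial, and all 95 passed the filter on low counts in all 3. By complex the nuclear members were 38 for complex I, 4 for complex II, 8 for complex III, 16 for complex IV and 16 for complex V, and the mitochondrial members were 7, 0, 1, 3 and 2 in the same order.

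The study sequenced polyadenylated RNA from mouse bone marrow stromal cells that had been sorted by surface proteins, in 11 libraries. Adult cells (3 libraries, wild type) were labelled as sorted positive for PDGFRa, a growth factor receptor of stroma, and for CD51, the integrin alpha V chain. The libraries labelled Sca1-negative (2 libraries, wild type, replicates 2 and 3) carry a label of PDGFRa-positive cells of early life without the surface protein Sca1. The Igf1r knockout (3 libraries) was made in cells labelled PDGFRa+Sca1+ and Cre-positive, in which the receptor for insulin-like growth factor 1 had been deleted, with no age stated. The reference in all 3 tables was wild-type cells labelled PDGFRa+Sca1+, Cre-negative by their titles and called perinatal in the design text and postnatal in the sample labels (3 libraries). Cre and the deletion occurred together, so their effects cannot be told apart, and the labels name neither the Cre driver nor separate animals, so that p-values measure the spread between these libraries, which may be technical.

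Oxidative phosphorylation works as a relay. Complex I takes electrons from NADH and complex II takes them from succinate, both hand them through ubiquinone to complex III, cytochrome c carries them on to complex IV, and complex IV gives them to oxygen. Complexes I, III and IV pump protons out of the mitochondrial matrix, and ATP synthase, complex V, uses the returning protons to make ATP. Complexes I, III, IV and V are built from subunits of both genomes, while complex II is wholly nuclear. The mitochondrial transcripts are made as long precursors and cut into single messages, and proteins made in the cytosol have to be imported to meet their partners.

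The libraries held between 13412316 and 23782217 counts, so that 3 counts, the limit a count of 0 allows, were worth 0.126 to 0.224 CPM (counts scaled to the same library total), covering counting error only. Values of members are CPM after TMM scaling within a table, so that a library shared by tables has slightly different values in each, whereas marker sums, checks and shares use plain totals. The libraries labelled Sca1-positive replicates 2 and 3 were the same in the age and Sca1 tables (95 of 95 member counts equal) and nearly so in the knockout table (91 and 89 of 95 equal), whereas the column for replicate 1 differed between the age and the knockout tables (1 of 95 equal). The label check went against the names in places. Ly6a, the gene of Sca1, had 10159 and 9112 counts in the libraries labelled Sca1-negative, against 239 and 145 counts in the libraries labelled Sca1-positive replicates 2 and 3. Ly6a had 17051, 12936 and 22125 counts in the knockout libraries, against 8624, 239 and 145 counts in the libraries labelled Sca1-positive. Igf1r had 182, 80 and 77 counts in the knockout libraries, against 599, 548 and 444 counts in the libraries labelled Sca1-positive (edgeR log2 fold change -2.55, adjusted p = 0.0816). Pdgfra lay at 13.4 to 15.2 CPM in adult libraries, against 235 to 279 CPM in perinatal libraries, which goes against the PDGFRa-positive label of the adult cells, and Itgav, the CD51 gene, lay at 271 to 305 CPM in adult libraries and 47.6 to 51.9 CPM in perinatal libraries. In bulk libraries fewer cells of a type and less RNA per cell cannot be told apart.

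The adult table asks how adult cells differ from perinatal cells labelled Sca1-positive. By the labels these groups differed both in age and in sorting, PDGFRa+CD51+ against PDGFRa+Sca1+, and the effects of age and sorting cannot be told apart. Ly6a had no row in the adult table, so the Sca1 label could not be checked there for perinatal replicate 1. Nearly all nuclear respiratory chain genes were lower in adult cells and no nuclear member was called higher, while the mitochondrial genes were called in both directions at shares near those of all genes. Of the 82 nuclear members, 76 were called lower in adult cells at an adjusted p under 0.05, where 39.7% of all 13757 genes tested were called lower, and 0 were called higher, where 37.4% of genes were. At an unadjusted p under 0.05 the count called higher was also 0 (38.2% of genes higher and 40.5% lower), as it was by DESeq2. Leaving out adult replicates 1, 2 and 3 in turn gave 75, 74 and 76 nuclear members lower, where 36.8%, 38.2% and 36.5% of genes were lower, and 0 higher each time, where 33.9%, 35.1% and 33.8% were. Leaving out perinatal replicates 1, 2 and 3 in turn gave 76, 74 and 77 lower, where 42.1%, 37.4% and 38.4% of genes were lower, and 1, 0 and 0 higher, where 39.3%, 34.7% and 35.5% were. Without perinatal replicates 2 and 3 together 77 were lower and 0 higher, where 37.7% and 36.7% of genes were. The median log2 fold change of the nuclear members was -1.69, against -0.06 over all genes tested. Of the 13 mitochondrial members, 5 were called higher (38.5%, where 37.4% of all genes were) and 4 lower (30.8%, where 39.7% were), with a median of 0.14. The same counts, 76 nuclear members lower and 5 and 4 mitochondrial members higher and lower, stood in the authors' deposited table.

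As a share of all counts, the nuclear members took 0.597%, 0.673% and 0.602% in adult libraries and 1.71%, 1.32% and 1.22% in perinatal libraries. The 2 groups did not overlap, and the perinatal replicate 1 was the highest library. The mitochondrial members took 0.954%, 1.46% and 0.974% in adult libraries and 1.34%, 1.40% and 1.23% in perinatal libraries, and here the groups overlapped because adult replicate 2 lay above all perinatal libraries. That library held the highest adult value for 13 of 13 mitochondrial and 64 of 82 nuclear members. The ratio of mitochondrial to nuclear member counts was 1.60, 2.18 and 1.62 in adult libraries and 0.783, 1.06 and 1.01 in perinatal libraries, without overlap. These shares are descriptions and carry no test.

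**Figure D1:**
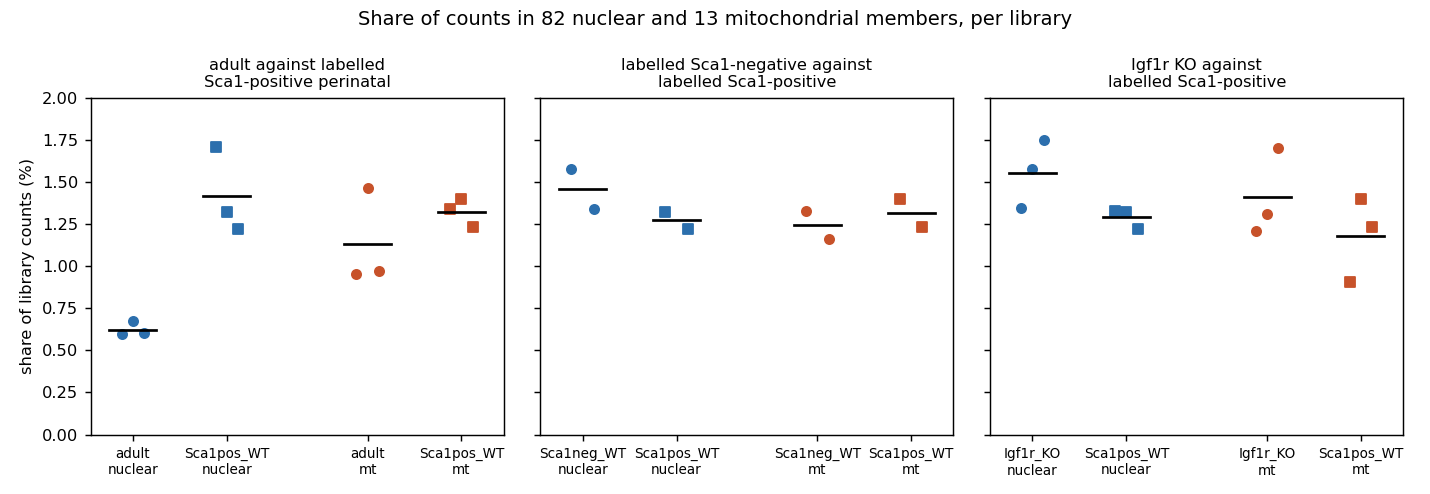
Percent of each library's counts taken by the nuclear members (blue) and the mitochondrial members (orange) in each of the 3 tables, with 1 point per library, circles left of squares (libraries labelled Sca1-positive), and lines at group means. In the adult table the adult points for nuclear members stand at 0.597% to 0.673% and the perinatal points at 1.22% to 1.71%, while in the other tables the nuclear points lie between 1.22% and 1.75%.

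Cell type markers moved with the same contrast, and their part in the results was not tested. Their called counts stand against 39.7% of all genes called lower and 37.4% higher. Genes at 0 in all adult libraries could pass the low-count filter through perinatal libraries only, so they could not be called higher. Of the macrophage markers, 15 of 15 were higher in adult cells, with summed levels of 26772 to 30216 CPM in adult libraries and 28.4 to 35.8 CPM in perinatal libraries. Of the stromal markers, 9 of 11 were lower, at 4900 to 7564 CPM in adult libraries and 75235 to 103870 CPM in perinatal libraries. Skeletal muscle markers were lower for 9 of 9 tested, at 12.7 to 17.7 CPM in adult libraries and 503 to 706 CPM in perinatal libraries, with 3 genes at 0 in all adult libraries. Erythroid markers were lower for 5 of 5 tested, at 0 to 0.0589 CPM in adult libraries and 770 to 1662 CPM in perinatal libraries, with 5 genes at 0 in all adult libraries. Cartilage markers were lower for 9 of 9 tested, at 54.3 to 90.2 CPM in adult libraries, with 2 genes at 0 in all adult libraries. Perinatal replicates 1, 2 and 3 differed there, at 786, 6397 and 7600 CPM. Bone markers (5 of 6 tested lower) lay at 1390 to 1787 CPM in adult libraries. In perinatal replicates 1, 2 and 3 they lay at 327, 6105 and 5686 CPM. Fibroblast progenitor markers (4 of 4 tested lower) lay at 11.2 to 14.7 CPM in adult libraries. In the same perinatal replicates they lay at 4952, 1182 and 1433 CPM.

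**Figure D2:**
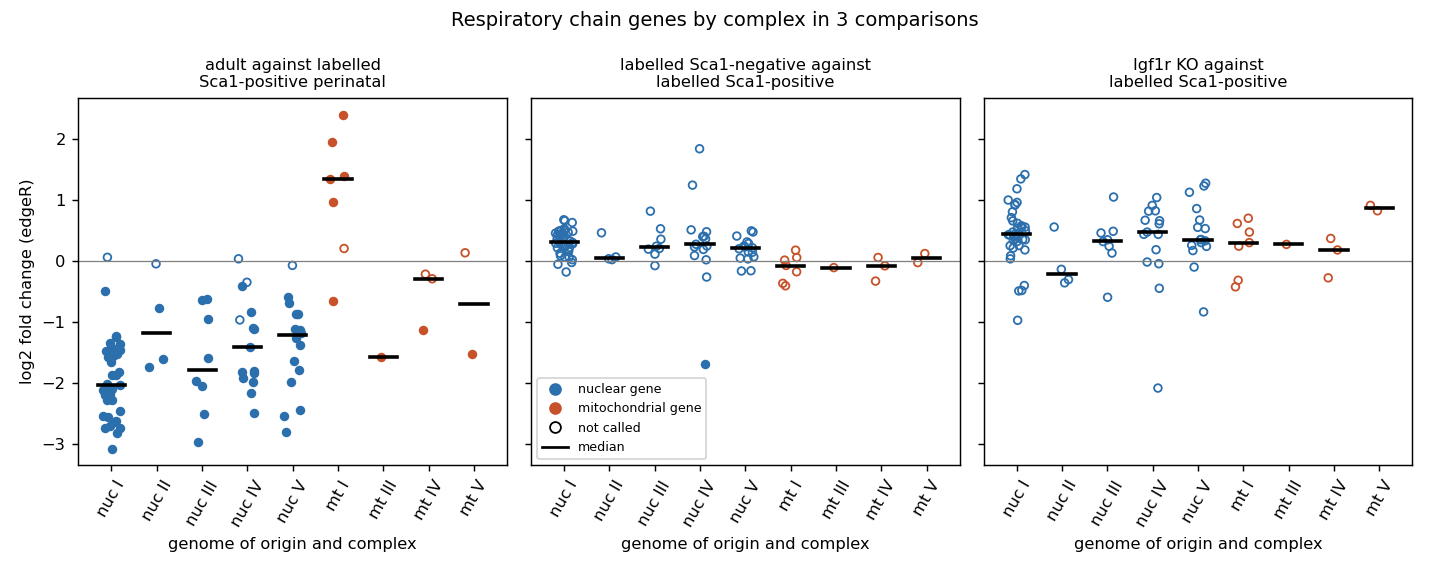
Log2 fold change of each member (points) by complex and genome, for the 3 comparisons, from the edgeR fit to the counts; lines mark medians, filled points were called and open points were not. Cox8b, which is at 0 in all adult libraries, is left out of all panels and of the complex IV medians drawn. In the adult comparison the nuclear members lie below 0 for nearly every gene, while mitochondrial members spread from -1.56 to 2.41.

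Complex I had the deepest drop of the nuclear complexes by its median. In adult cells 37 of its 38 nuclear members were lower, with a median log2 fold change of -2.02. All 31 accessory subunits and Ndufa4 family members were lower (median -2.13), and 6 of 7 core subunits were (median -1.54). The core subunits carry the flavin and the iron-sulfur clusters that move the electrons, and the accessory subunits surround them and are needed for assembly and stability. Ndufs7, a core subunit with the last iron-sulfur cluster of the relay, had 58.2, 59.8 and 61.7 CPM in adult libraries and 227, 217 and 208 CPM in perinatal libraries. The adult libraries lay together far below the perinatal ones, with a log2 fold change of -1.86 ± 0.11 (SE, n = 3 each, adjusted p = 5.20e-06, edgeR). Ndufv1, the flavin-bearing subunit that accepts electrons from NADH, had 52, 56.4 and 54 CPM in adult libraries and 193, 179 and 198 CPM in perinatal libraries, a log2 fold change of -1.81 ± 0.11 without overlap (adjusted p = 6.14e-06). Ndufs6, an accessory subunit, had 21.9, 23.4 and 22 CPM in adult libraries and 176, 129 and 116 CPM in perinatal libraries, a log2 fold change of -2.64 ± 0.18 (adjusted p = 9.81e-06). For each of these genes every adult library lay below every perinatal library.

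The accessory subunits ran from -3.07 for Ndufa1 to -1.23 for Ndufa6. Ndufa1, a small membrane subunit encoded on the X chromosome, had 19.3, 21.1 and 19.3 CPM in adult libraries and 246, 139.9 and 117 CPM in perinatal libraries (SE 0.29, adjusted p = 4.46e-05), and the perinatal replicate 1 stood well above the other two. Ndufs8, a core subunit with a pair of iron-sulfur clusters, changed by -1.54 ± 0.12, at 55.2, 54.2 and 50.9 CPM in adult libraries and 166, 154 and 147 CPM in perinatal libraries. Ndufs1, the largest core subunit, was the exception at 63.4, 69.7 and 58.8 CPM in adult libraries and 67, 60.1 and 56.1 CPM in perinatal libraries. Its groups overlapped and it was not called (log2 fold change 0.07 ± 0.13, adjusted p = 0.645).

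Ndufa4 and its relative Ndufa4l2 carry complex I names, and Ndufa4 is now counted as a subunit of complex IV. Ndufa4 had 33.3, 38.8 and 36.8 CPM in adult libraries and 219.7, 136 and 139 CPM in perinatal libraries, a log2 fold change of -2.18 ± 0.21 (adjusted p = 5.50e-05). Ndufa4l2, known as a hypoxia-induced gene, had 55.1, 54.8 and 65.9 CPM in adult libraries and 176, 166 and 163 CPM in perinatal libraries, with -1.52 ± 0.13 (adjusted p = 2.27e-05). Both were lower without overlap. Ndufb4c, counted among the members by its name, is annotated as a processed pseudogene whose 390 bases match Ndufb4 at 100%, so reads of the pair cannot be assigned with certainty.

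Complex II, succinate dehydrogenase, belongs to both the citric acid cycle and the relay, and 3 of its 4 genes were lower in adult cells. Sdhb, the iron-sulfur subunit, had 83.4, 94.4 and 82.4 CPM in adult libraries and 368, 251 and 246 CPM in perinatal libraries, a log2 fold change of -1.73 ± 0.19 (adjusted p = 9.32e-05). Sdhd, a membrane anchor, had 70.5, 70.0 and 65.7 CPM in adult libraries and 214, 209 and 202 CPM in perinatal libraries, with -1.60 ± 0.11 (adjusted p = 9.62e-06), and the other anchor, Sdhc, changed by -0.76 ± 0.11 (adjusted p = 0.000345). Sdha, the flavin subunit that oxidises succinate, had 209, 226 and 211 CPM in adult libraries and 215, 228 and 221 CPM in perinatal libraries. Its groups overlapped, with a log2 fold change of -0.04 ± 0.11 (adjusted p = 0.757), and this value changed sign when libraries were scaled by their totals alone (0.23). The log2 ratio of Sdhb to Sdha CPM was -1.33, -1.26 and -1.36 in adult libraries and 0.77, 0.14 and 0.15 in perinatal libraries, a description of a pair chosen after the values were seen.

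The promoters of these 2 genes are shown because the catalytic subunits of 1 complex had different values in the adult contrast. Each window holds 250 bases before and 50 after the gene's start, from RefSeq on GRCm38.p6, written along the gene's strand. Capitals mark 4 short motifs searched on both strands: GCATGCG, the core of the NRF1 site, CCGGAAG, the core of the ETS site that GABP binds, AAGATGG, the core of the YY1 site, and CCAAT, the box bound by NF-Y. These factors are known as regulators of nuclear respiratory genes. The Sdhb window, chr4:140961021-140961320 on the plus strand, holds an NRF1 core, an ETS core and a CCAAT box. The Sdha window, chr13:74350191-74350490 on the minus strand, holds a CCAAT box.
Sdhb: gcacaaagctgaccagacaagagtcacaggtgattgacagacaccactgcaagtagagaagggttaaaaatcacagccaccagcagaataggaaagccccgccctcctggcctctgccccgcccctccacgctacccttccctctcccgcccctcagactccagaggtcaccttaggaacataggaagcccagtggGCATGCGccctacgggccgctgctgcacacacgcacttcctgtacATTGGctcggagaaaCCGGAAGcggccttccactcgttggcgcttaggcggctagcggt
Sdha: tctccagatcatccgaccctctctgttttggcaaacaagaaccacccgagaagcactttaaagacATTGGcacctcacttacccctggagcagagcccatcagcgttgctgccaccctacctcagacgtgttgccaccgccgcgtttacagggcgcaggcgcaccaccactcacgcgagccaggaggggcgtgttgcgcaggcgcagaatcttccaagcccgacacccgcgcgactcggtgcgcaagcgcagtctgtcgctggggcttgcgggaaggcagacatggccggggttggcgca
Windows were matched for 66 of the 82 nuclear members. The NRF1 core was in 13.6% of them, against 3.64% of all 27025 windows and 6.27% of the windows of the 10633 other genes tested in the adult table. The ETS core was in 24.2%, against 9.12% of all windows and 17.4% of those of other tested genes. The YY1 core was in 15.2%, against 6.48% and 7.03%, and the CCAAT box in 43.9%, against 37.9% and 38.7%, in the same 2 sets. A match of letters is a description and no evidence of binding.

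Complex III, the cytochrome bc1 complex, was lower throughout, with 8 of 8 nuclear members called. Uqcrc1, a core protein of the complex, had 127, 134 and 137 CPM in adult libraries and 539, 550.4 and 558 CPM in perinatal libraries, a log2 fold change of -2.05 ± 0.12 (adjusted p = 4.49e-06). Its partner Uqcrc2 had 62.3, 72.4 and 66.8 CPM in adult libraries and 104, 107 and 101 CPM in perinatal libraries, with -0.63 ± 0.11 (adjusted p = 0.00133). Both were lower without overlap, but the log2 ratio of Uqcrc1 to Uqcrc2 averaged 0.98 in adult libraries and 2.40 in perinatal libraries, again a pair chosen after the values were seen. Uqcrfs1, the Rieske iron-sulfur protein, changed by -0.62 ± 0.11 (adjusted p = 0.000982). The 5 small subunits had a median of -1.97, against -0.63 for the 3 core subunits. Uqcr11, a small subunit, had 39.3, 44.9 and 43.3 CPM in adult libraries and 531, 249 and 214 CPM in perinatal libraries, and perinatal replicate 1 was the highest. Its log2 fold change was -2.96 ± 0.36 (adjusted p = 0.000158), with -2.50 for Uqcr10 and -1.97 for Uqcrh, the hinge protein that helps cytochrome c bind.

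Complex IV, cytochrome c oxidase, has subunits that exist in tissue-specific versions. The 10 widely expressed isoform genes were all lower in adult cells, with a median log2 fold change of -1.81. Cox6a1 had 162, 172 and 169.9 CPM in adult libraries and 708, 563 and 508 CPM in perinatal libraries, with -1.82 ± 0.16 (adjusted p = 3.15e-05). Cox5b, a matrix-side zinc-binding subunit, had 62.3, 70.4 and 62.9 CPM in adult libraries and 321, 236 and 218 CPM in perinatal libraries, with -1.99 ± 0.18 (adjusted p = 3.37e-05). Cox6c, Cox7a2 and Cox6b1 changed by -1.80, -1.91 and -1.84, and Cox8a by -1.11. Cox4i1, the common form of the regulatory subunit that binds ATP, had 329, 363 and 329 CPM in adult libraries and 707, 557 and 547 CPM in perinatal libraries. It changed by -0.83 ± 0.15 (adjusted p = 0.00141), less than the median of its group. Cox5a, the partner of Cox4i1 in assembly, changed by -0.40 ± 0.12 (adjusted p = 0.0162), a call that did not hold with scaling by totals alone (-0.14) or without adult replicate 1 (-0.36), adult replicate 2 (-0.31) or perinatal replicate 2 (-0.39).

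Of 6 further complex IV genes, the tissue-restricted isoforms and Cox7a2l, 3 were called lower in adult cells, where 39.7% of all genes were. Among them Cox8b, at 0 in all adult libraries, could not have been called higher. Cox4i2, the form known from lung and from low oxygen, had 9.99, 8.71 and 10.6 CPM in adult libraries and 11.2, 25.2 and 25.9 CPM in perinatal libraries, and perinatal replicate 1 stood close to the adult libraries. Its log2 fold change was -1.09 ± 0.32 (adjusted p = 0.014), and the call did not hold without adult replicate 2 (adjusted p = 0.0625), without perinatal replicate 2 (0.0513), or without perinatal replicates 2 and 3 together, where the log2 fold change was -0.19 (0.446). Cox6b2, the testis form, had 1.82, 2.82 and 3.32 CPM in adult libraries and 14.8, 15.6 and 14 CPM in perinatal libraries, with -2.49 ± 0.25 (adjusted p = 6.00e-05). Cox8b, a muscle and brown fat form, was at 0 counts in all adult libraries and 4.29, 1.38 and 2.70 CPM in perinatal libraries, at least 13.2-fold lower in adult cells against a floor of 3 counts per library. Cox6a2 and Cox7a1, the heart and muscle forms, lay at 7.32 CPM or less in every library of the adult table and were not called. Cox7a2l, which helps join complexes III and IV, had 144, 155 and 146 CPM in adult libraries and 181, 128 and 122 CPM in perinatal libraries, with overlap (log2 fold change 0.04 ± 0.17, adjusted p = 0.83). Without perinatal replicate 1 it was called higher (0.26, adjusted p = 0.0325), and without perinatal replicates 2 and 3 together its value was -0.27.

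**Figure D3:**
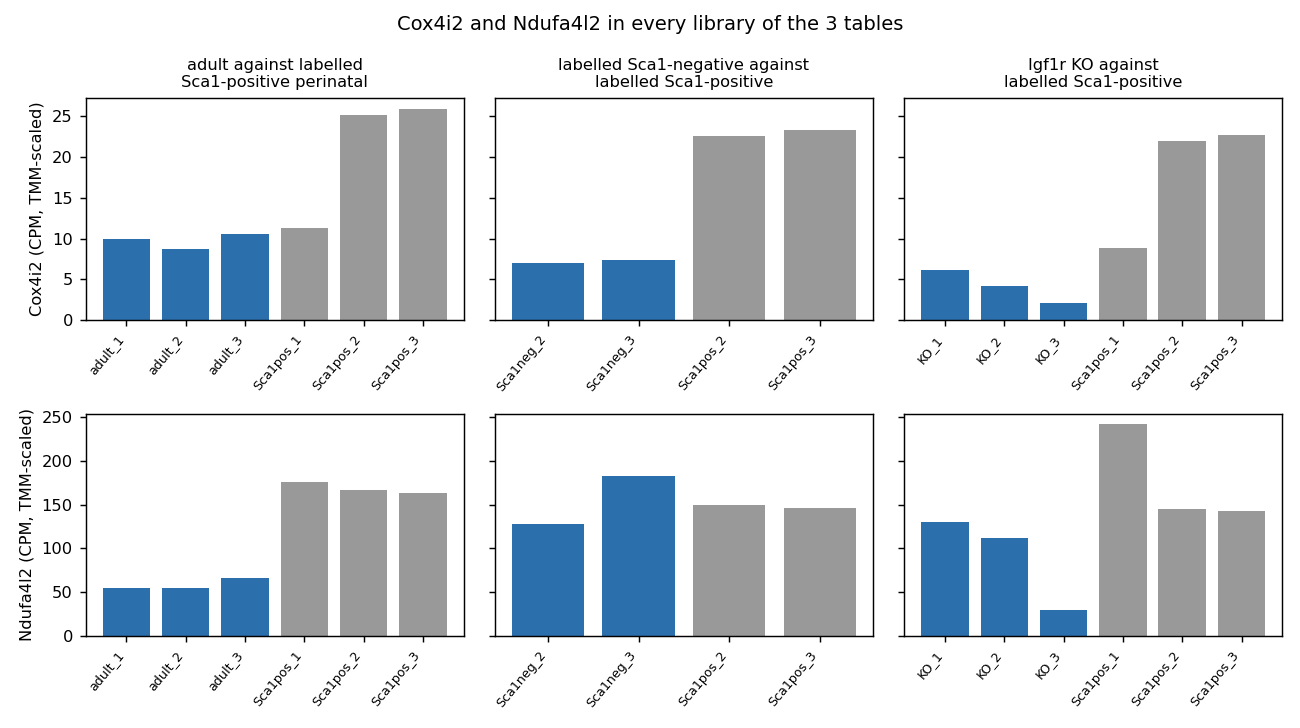
CPM after TMM scaling of Cox4i2 (top) and Ndufa4l2 (bottom) in each library of the 3 tables, with 1 bar per library and the libraries labelled Sca1-positive in grey on the right of each panel. Cox4i2 lies at 6.96 and 7.33 CPM under the Sca1-negative label and at 22.6 and 23.3 CPM under the Sca1-positive label.

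Complex V, ATP synthase, had 15 of its 16 nuclear members lower in adult cells. All 5 genes of the catalytic F1 head were called lower, with a median of -0.86, and all 9 stalk and membrane genes, with a median of -1.63. Atp5b, the catalytic beta subunit, had 527, 547 and 526 CPM in adult libraries and 799, 779.8 and 823 CPM in perinatal libraries, with -0.59 ± 0.12 (adjusted p = 0.00264), and the alpha subunit Atp5a1 changed by -0.69 ± 0.14 (adjusted p = 0.00233). Atp5c1, the rotating gamma subunit, changed by -1.11 ± 0.12 (adjusted p = 7.26e-05). Atp5o, the stalk subunit that ties the head to the membrane part, had 71, 73.9 and 72.2 CPM in adult libraries and 448, 379 and 354 CPM in perinatal libraries. Its change of -2.44 ± 0.14 had the smallest adjusted p of the members (4.14e-06). Atp5j, another stalk subunit, changed by -1.98 ± 0.18 (adjusted p = 3.30e-05).

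The ring of c subunits that turns as protons pass is encoded by several genes with the same mature protein. Of these genes only Atp5g1 and Atp5g3 were among the members. Atp5g1 had 51.4, 53.8 and 51.8 CPM in adult libraries and 445, 349.8 and 302 CPM in perinatal libraries, a log2 fold change of -2.80 ± 0.17 (adjusted p = 6.14e-06). Atp5g3 had 106, 104 and 108 CPM in adult libraries and 120.5, 104 and 108 CPM in perinatal libraries, with -0.07 ± 0.11 (adjusted p = 0.614). The first was lower without overlap and the groups of the second overlapped. The log2 ratio of Atp5g1 to Atp5g3 was -1.04, -0.94 and -1.06 in adult libraries and 1.89, 1.75 and 1.48 in perinatal libraries, for a pair chosen after the values were seen. Their promoter windows are shown because these 2 c subunit genes had different values, with the same motifs in capitals. The Atp5g1 window, chr11:96075582-96075881 on the minus strand, holds 5 CCAAT matches, and the Atp5g3 window, chr2:73911277-73911576 on the minus strand, holds 1. In the Atp5g1 window the stretch CCAATTGG is matched on each strand, so these matches overlap and are not all separate sites.
Atp5g1: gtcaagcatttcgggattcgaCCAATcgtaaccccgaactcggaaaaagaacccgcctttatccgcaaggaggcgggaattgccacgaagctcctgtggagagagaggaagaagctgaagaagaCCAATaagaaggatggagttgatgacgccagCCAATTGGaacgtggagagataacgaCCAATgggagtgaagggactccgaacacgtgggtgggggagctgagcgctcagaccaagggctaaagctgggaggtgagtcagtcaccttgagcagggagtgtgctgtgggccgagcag
Atp5g3: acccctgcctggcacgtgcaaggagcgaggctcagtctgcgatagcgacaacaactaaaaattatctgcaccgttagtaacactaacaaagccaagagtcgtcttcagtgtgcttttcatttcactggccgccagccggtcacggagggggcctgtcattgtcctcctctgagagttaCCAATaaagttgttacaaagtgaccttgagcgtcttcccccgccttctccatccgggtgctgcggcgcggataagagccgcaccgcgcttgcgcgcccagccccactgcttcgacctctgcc

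The mitochondrial members split by gene rather than by complex alone. The 5 called higher in adult cells were all complex I subunits, and the 4 called lower were mt-Cytb, mt-Atp6, mt-Co3 and mt-Nd1. mt-Nd2, a proton-pumping membrane subunit, had 285, 424 and 319 CPM in adult libraries and 75.5, 63.2 and 55.2 CPM in perinatal libraries. Every adult library lay above every perinatal one, with a log2 fold change of 2.41 ± 0.20 (adjusted p = 2.56e-05). mt-Nd6, which lies on the opposite strand from the other mitochondrial members, had 77.1, 93.7 and 84.7 CPM in adult libraries and 21.9, 21.3 and 22.4 CPM in perinatal libraries, with 1.96 ± 0.13 (adjusted p = 6.52e-06, edgeR). The use of strand is not given, so reads from the other strand of this stretch cannot be told apart from those of mt-Nd6. mt-Nd5, a large pumping subunit, had 535, 691 and 601 CPM in adult libraries and 230.2, 235 and 224 CPM in perinatal libraries, with 1.41 ± 0.14 (adjusted p = 6.00e-05). mt-Nd4l and mt-Nd3 rose by 1.36 ± 0.23 and 0.98 ± 0.19, while mt-Nd4 was not called (0.21 ± 0.20, adjusted p = 0.362).

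mt-Cytb, the mitochondrial subunit of complex III, had 563, 974 and 602 CPM in adult libraries and 2084, 2242 and 1998 CPM in perinatal libraries, lower without overlap (-1.56 ± 0.23, adjusted p = 0.000507). mt-Atp6, the proton channel subunit of ATP synthase, had 533, 929 and 498 CPM in adult libraries and 2191, 1901 and 1548 CPM in perinatal libraries (-1.52 ± 0.28, adjusted p = 0.0014). mt-Co3, a core subunit of complex IV, changed by -1.12 ± 0.23 (adjusted p = 0.00259). The 2 subunits of complex IV that hold its metal centres, mt-Co1 and mt-Co2, were not called (-0.21 and -0.29), though mt-Co2 was called lower without adult replicate 2 (-0.46, adjusted p = 0.0295). mt-Nd1 fell by 0.65 on the log2 scale (adjusted p = 0.0295), a call that did not hold without adult replicate 1 (-0.47), adult replicate 3 (-0.49), perinatal replicate 2 (-0.60), perinatal replicate 3 (-0.67), or both of these perinatal libraries (-0.60), or with scaling by totals alone (-0.37). mt-Atp8, whose reading frame overlaps that of mt-Atp6, was at 0.14 and not called. The log2 ratio of mt-Nd2 to mt-Cytb averaged -1.03 in adult libraries and -5.04 in perinatal libraries, for a pair chosen after the values were seen.

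The authors' TPM values give another measure. On TPM the all-gene median ratio of adult to perinatal means was 0.50 on the log2 scale, against -0.03 on CPM. The gap between TPM and CPM was not the same for every gene. The log2 ratio of Sdha was 1.52 on TPM and -0.04 on CPM, and that of Sdhc was -0.86 on TPM and -0.76 on CPM. The cause of this difference was not tested. On TPM, 68 of 81 nuclear members with a value above 0 in both groups lay lower in adult libraries without overlap, where 29.6% of 13423 genes did, and 5 lay higher, where 51% did. The 5 were Sdha, Ndufs1, Cox7a2l, Atp5g3 and Cox5a. Cox5a, called lower on counts, had a log2 TPM ratio of 0.36, which is -0.15 relative to the all-gene median and so below the typical gene. Sdha averaged 254 ± 17.7 TPM in adult libraries and 89.0 ± 9.96 TPM in perinatal libraries (SD, n = 3 each). Its log2 TPM ratio was 1.01 relative to the all-gene median. The nuclear median was -1.06 on TPM. Of the 13 mitochondrial members, 9 lay higher without overlap on TPM and 0 lay lower. The 4 called lower on counts had overlapping TPM groups, with log2 TPM ratios of -0.51 for mt-Cytb, -0.45 for mt-Atp6, -0.02 for mt-Co3 and 0.37 for mt-Nd1, and relative to the all-gene median these were -1.01, -0.96, -0.53 and -0.13. These 4 genes were thus lower without overlap on counts only. Relative to the all-gene median all 4 were also below it on TPM, mt-Nd1 by little, and no test was run on TPM.

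**Figure D4:**
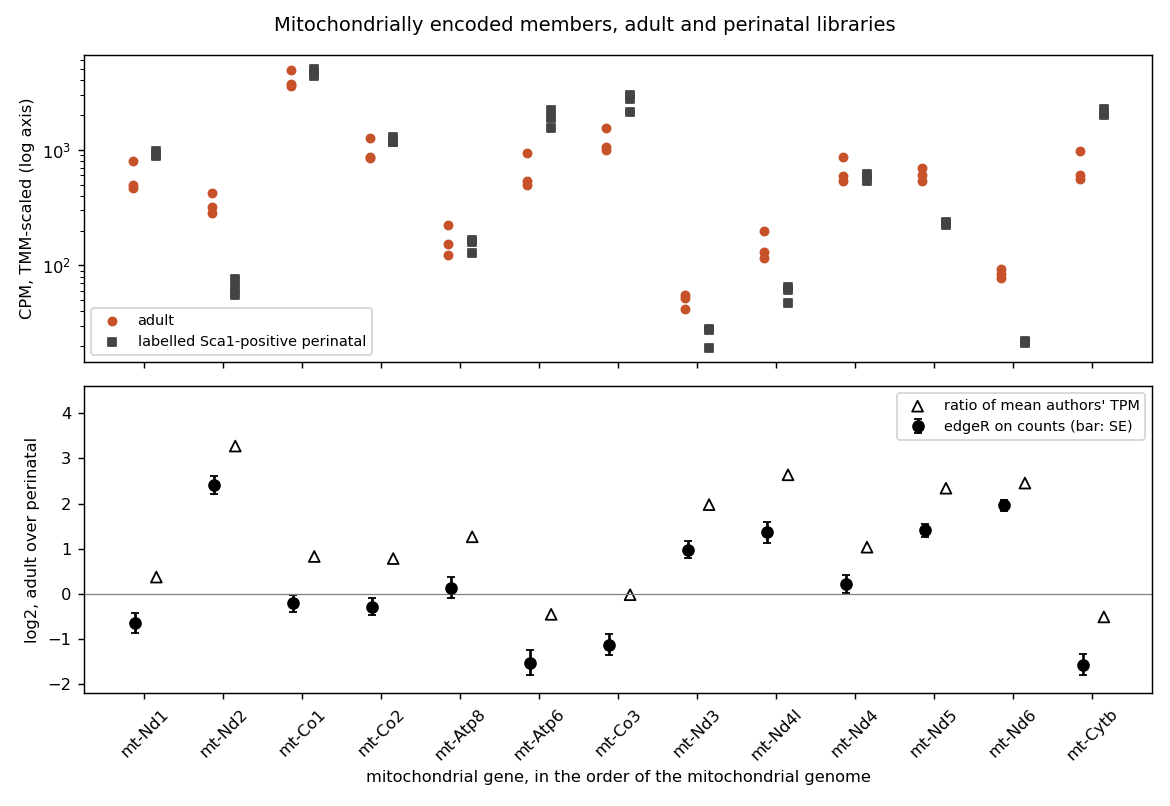
Upper panel, CPM after TMM scaling (log axis) of the 13 mitochondrial members in each adult and perinatal library. Lower panel, log2 adult over perinatal from the edgeR fit to counts (circles, bars are SE) and from the authors' TPM means (triangles), with mt-Nd2 highest on both, at 2.41 and 3.27.

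Genes around the chain were read from lists drawn up with earlier results known, and their counts stand against 39.7% of all genes called lower and 37.4% higher in the adult table. Among 9 further subunits and carriers, 7 were lower and 2 higher in adult cells, and Cyc1, the cytochrome c1 of complex III, averaged 62.7 ± 1.33 CPM in adult libraries and 187 ± 30.8 CPM in perinatal libraries (log2 fold change -1.57 ± 0.15, adjusted p = 4.88e-05). Higd2a and Higd1a, which act in supercomplex and complex IV assembly, changed by -1.58 and -1.62. Assembly factors were lower for 10 of 15 tested in complex I (1 higher), for 6 of 10 in complexes II and III (0 higher), for 9 of 19 in complex IV (7 higher, both near the shares of all genes) and for 4 of 5 in complex V (1 higher). Ecsit and Ndufaf6, complex I assembly factors, each changed by -2.01, Uqcc2, which helps make cytochrome b, by -2.19, and Fmc1, needed for F1 assembly in yeast, by -3.71. Coa5, a complex IV assembly factor, averaged 112 ± 1.56 CPM in adult libraries and 27.2 ± 4.43 CPM in perinatal libraries (2.04 ± 0.15, adjusted p = 1.16e-05), and Taco1, which activates translation of mt-Co1, changed by 3.24.

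Of 78 mitochondrial ribosome genes, 59 were lower and 3 higher, with a median of -1.09. Mrps28, a small subunit protein, averaged 11.4 ± 0.02 CPM in adult libraries and 96.6 ± 23.3 CPM in perinatal libraries (-3.09 ± 0.19, adjusted p = 6.52e-06). Of 16 citric acid cycle and pyruvate dehydrogenase genes, 9 were lower and 2 higher, among them Mdh2, mitochondrial malate dehydrogenase, at 133 ± 13.9 CPM in adult libraries and 479 ± 14.1 CPM in perinatal libraries (-1.85 ± 0.13, adjusted p = 1.17e-05). Of 12 electron entry and shuttle genes, 7 were lower and 3 higher. Etfb, which passes electrons from fatty acid oxidation, changed by -2.84, Slc25a4, an ADP/ATP carrier, by -1.50, and Got1, a cytosolic enzyme of the malate-aspartate shuttle, averaged 104 ± 6.25 CPM in adult libraries and 10.8 ± 4.05 CPM in perinatal libraries (3.27 ± 0.27, adjusted p = 2.2e-05).

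Of 17 regulators of mitochondrial biogenesis, 5 were higher and 6 lower, near the shares of all genes. Esrra, a nuclear receptor that drives respiratory genes, averaged 55.2 ± 3.93 CPM in adult libraries and 4.08 ± 1.35 CPM in perinatal libraries (3.75 ± 0.25, adjusted p = 7.7e-06). Its coactivator Ppargc1a averaged 0.18 ± 0.11 CPM in adult libraries, near the floor, and 2.61 ± 1.11 CPM in perinatal libraries (-3.85 ± 0.60, adjusted p = 0.000626). Polg, the mitochondrial DNA polymerase, changed by 1.63 and Polg2, its accessory subunit, by -2.62. Gabpa, the ETS factor subunit of GABP, changed by 0.75 and Nrf1 by -0.52 (adjusted p = 0.0336). Tfam, which packages and transcribes mitochondrial DNA, was not called (0.12 ± 0.13, adjusted p = 0.439).

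Gene length moved with the adult contrast, and its part in the result was not tested. Of 81 protein-coding nuclear members (the pseudogene Ndufb4c left out), exon lengths were up to 1000 bases for 21 and over 5000 for 3. Among other protein-coding genes the median log2 fold change was -1.18 up to 1000 bases, -1.04 over 1000 and up to 2000, -0.56 up to 3000, -0.06 up to 5000 and 0.41 over 5000. The members' medians in the same bins were -1.91, -1.79, -1.45, -1.43 and -1.25, on 21, 31, 11, 15 and 3 genes, and each was below the median of other genes of that length. Called lower were 19, 30, 10, 14 and 2 members in the same bins, where 58.3%, 59.3%, 50.5%, 39.2% and 29.9% of other genes were.

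**Figure D5:**
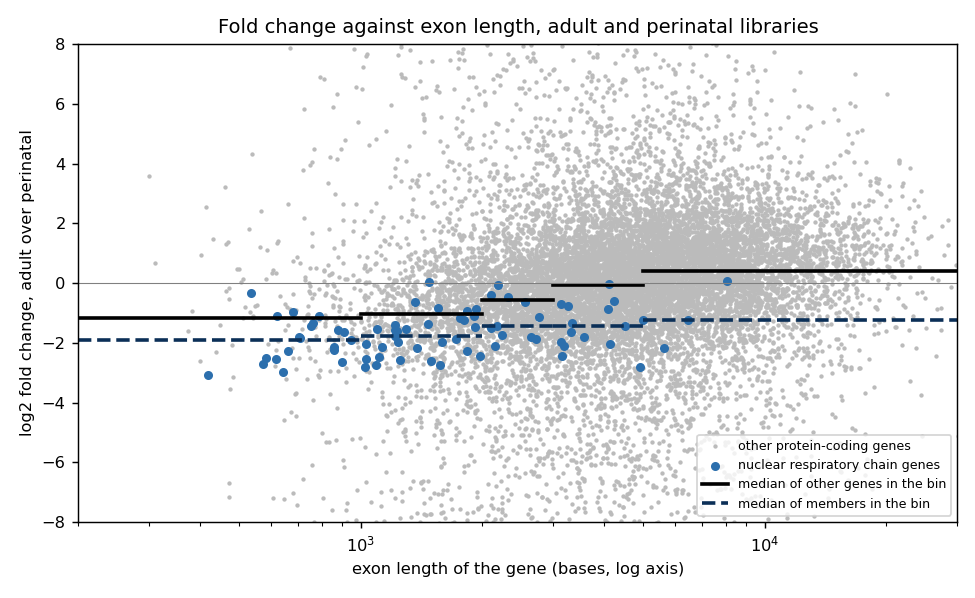
Log2 fold change, adult over perinatal, against exon length in bases (log axis), for nuclear members (coloured) and other protein-coding genes tested (grey), with the medians of length bins. Cox8b and the pseudogene Ndufb4c are not drawn, Cox8b counts in its bin's median, and points beyond the axis limits of -8 and 8 are not shown. Members' medians run from -1.91 in the shortest bin to -1.25 in the longest, those of other genes from -1.18 to 0.41.

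The Sca1 table compares libraries labelled Sca1-negative with those labelled Sca1-positive. Of the 95 members, only Cox4i2 was called by edgeR, and it was lower, where 4.41% of genes were called in either direction. It had 6.96 and 7.33 CPM under the Sca1-negative label and 22.6 and 23.3 CPM under the Sca1-positive label. The groups lay far apart, with a log2 fold change of -1.68 ± 0.21 (SE, n = 2 each, adjusted p = 0.00921, edgeR), where 2.79% of 13529 genes were called lower and 1.63% higher. The gene lies on chromosome 2, from 152754173 to 152765037 on the plus strand of mm10. Per length, Cox4i2 made up 1.12% and 1.54% of the TPM of Cox4i1 and Cox4i2 together in the libraries labelled Sca1-negative, and 4.48% and 4.68% in those labelled Sca1-positive. In the adult table the same share was 3.03%, 2.41% and 3.19% in adult libraries and 1.63%, 4.48% and 4.68% in perinatal libraries, the last 2 being the same libraries again.

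The other nuclear members lay slightly higher in the libraries labelled Sca1-negative, without passing the test. Their median log2 fold change was 0.27, against 0.01 over all genes, 74 of 82 had a positive value, and 42 lay higher without overlap (51.2%, where 24.4% of genes did), with 4 lower (25.8% of genes). On the authors' TPM the counts were smaller, with 23 higher without overlap (28%, where 16.2% of genes were), 8 lower (9.76%, where 35.2% were) and 17 ratios below 1. At an unadjusted p under 0.05, 8 were higher and 1 lower, where 8.65% and 10.3% of genes were, and DESeq2 called 1 higher, where it called 2.94% of genes higher and 4.12% lower. The authors' deposited table also held 1 higher and 1 lower. The medians were 0.32, 0.06, 0.23, 0.33 and 0.21 for complexes I to V, and the 31 accessory subunits and Ndufa4 family members of complex I were all positive (median 0.41). Uqcr11 had 429 and 306 CPM under the Sca1-negative label and 223 and 192 CPM under the Sca1-positive label (0.82 ± 0.23, adjusted p = 0.114, and 0.0181 by DESeq2). Cox7a1 had 4.73 and 2.59 CPM under the Sca1-negative label and 1.24 and 0.762 CPM under the Sca1-positive label (1.85 ± 0.48, adjusted p = 0.0952). Ndufb7, an accessory subunit of complex I, was at 0.68 ± 0.23 (adjusted p = 0.18).

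Within each group replicate 2 was the higher library for most members, 70 of 82 nuclear members in the group labelled Sca1-negative and 72 of 82 in the group labelled Sca1-positive. Without the library labelled Sca1-negative replicate 3, edgeR called 47 nuclear members higher and 2 lower, where 16.3% and 18.4% of genes were called, with the lone remaining library assumed to vary like the other group. Without the library labelled Sca1-negative replicate 2 it called 1 higher and 1 lower, where 7.99% and 8.24% of genes were called. Without the library labelled Sca1-positive replicate 2 it called 0 higher and 1 lower (1.03% and 2.52% of genes), and likewise without Sca1-positive replicate 3 (1.2% and 2.28%). Cox4i2 was called lower in each of these fits. The mitochondrial members had a median of -0.07, 0 were called by edgeR or at an unadjusted p under 0.05, and 4 lay lower without overlap (30.8%, where 25.8% of genes did). On the authors' TPM, 13 of 13 had a ratio below 1, with a median log2 ratio of -0.33 against -0.14 over all genes, and 10 lay lower without overlap, where 35.2% of 13510 genes did. The share of counts of the nuclear members was 1.58% and 1.34% in the libraries labelled Sca1-negative and 1.32% and 1.22% in those labelled Sca1-positive.

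Other lists were largely uncalled there. Sqor, which feeds electrons from sulfide into ubiquinone, was higher, at 28.6 ± 4.31 CPM under the Sca1-negative label and 10.4 ± 0.904 CPM under the Sca1-positive label (log2 fold change 1.45 ± 0.22, adjusted p = 0.0185, and 0.0691 without the library labelled Sca1-positive replicate 2). Of 15 complex I assembly factors, 19 complex IV assembly factors and 78 mitochondrial ribosome genes, 0 were called in either direction by edgeR. Markers moved with this contrast, where 2.79% of all genes were called lower and 1.63% higher, and their part was not tested. Cartilage markers were lower for 10 of 10, at 642 to 762 CPM summed in the libraries labelled Sca1-negative and 6399 to 7602 CPM in those labelled Sca1-positive. Bone markers were lower for 6 of 7, at 95 to 144 CPM and 5688 to 6107 CPM in the same groups, and fibroblast progenitor markers were higher for 5 of 6, at 5881 to 6756 CPM and 1209 to 1454 CPM.

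The knockout table compares Igf1r-deleted cells with the libraries labelled Sca1-positive. No respiratory chain member was called by edgeR in either direction, in a table where 0% of 13590 genes were called higher and 0.0368% lower. At an unadjusted p under 0.05, 21 of the 95 members were higher and 1 lower, where 12.1% and 9.68% of genes were. DESeq2 called 6 nuclear members higher and 1 lower, where 3.29% and 3.68% of genes were, and the authors' deposited table held 5 higher and 1 lower. The median of the nuclear members was 0.44, against -0.03 over all genes, and 68 of 82 were positive. Without overlap 25 lay higher (30.5%, where 14.9% of genes did) and 7 lower (14.1% of genes). The medians were 0.44, -0.21, 0.34, 0.46 and 0.36 for complexes I to V.

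The knockout libraries differed among themselves. Replicate 3 held the highest knockout value for 61 of 82 nuclear members and replicate 1 the lowest for 65. Ndufa4 had 149.9, 182 and 313 CPM in knockout libraries and 98.3, 118 and 121 CPM in those labelled Sca1-positive, with no overlap (0.93 ± 0.31, n = 3 each, adjusted p = 0.184, edgeR). Cox7a2 had 132, 203 and 266 CPM in knockout libraries and 92.9, 132 and 115 CPM in those labelled Sca1-positive (0.82 ± 0.30, adjusted p = 0.194). Ndufa12, a complex I accessory subunit, had 102, 220.5 and 454 CPM in knockout libraries and 99.3, 107 and 82.7 CPM in those labelled Sca1-positive (1.42 ± 0.49, adjusted p = 0.184). Its replicate 1 lay among the values labelled Sca1-positive and replicate 3 far above them. Ndufc1 and Atp5md, small subunits of complexes I and V, were at 1.35 ± 0.48 and 1.28 ± 0.34 (adjusted p = 0.186 and 0.177), and Cox6b1 at 0.62 ± 0.24. Without knockout replicate 1, edgeR called 26 nuclear and 4 mitochondrial members higher and 1 nuclear member lower, where 11% of genes were called higher and 10.5% lower. Without either of the other knockout libraries it called 0, where 0% of genes were called higher and 0% lower.

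A few members lay lower in the knockout. Cox4i2 had 6.18, 4.25 and 2.17 CPM in knockout libraries and 8.84, 21.9 and 22.6 CPM in those labelled Sca1-positive, without overlap. Its log2 fold change of -2.08 ± 0.49 had an adjusted p of 0.176 by edgeR and 0.00269 by DESeq2, and 0.0424 by edgeR without the library labelled Sca1-positive replicate 1. That library, the Ly6a-high one of its group, had the Cox4i2 value nearest to the knockout. Ndufa4l2 had 129.8, 111 and 29.5 CPM in knockout libraries and 242, 145 and 142 CPM in those labelled Sca1-positive (-0.97 ± 0.51, adjusted p = 0.281). Uqcrc1 had 433, 411 and 223 CPM in knockout libraries and 639, 479 and 487 CPM in those labelled Sca1-positive (-0.59 ± 0.31, adjusted p = 0.278). Atp5d, the delta subunit of the F1 head, was at -0.83 ± 0.41 (adjusted p = 0.263). For Ndufa4l2 and Uqcrc1 the knockout replicate 3 was the lowest library of the table.

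The mitochondrial members were positive for 10 of 13 in the knockout, with a median of 0.31, and none lay apart from the libraries labelled Sca1-positive. mt-Atp8 had 105, 272 and 279 CPM in knockout libraries and 97, 139.6 and 111 CPM in those labelled Sca1-positive (0.92 ± 0.38, adjusted p = 0.221). mt-Nd2 was at 0.71 ± 0.30 (adjusted p = 0.221) and mt-Nd4l at -0.42 ± 0.25 (adjusted p = 0.319). Their share of counts was 1.21%, 1.31% and 1.70% in knockout libraries and 0.906%, 1.40% and 1.23% in those labelled Sca1-positive, and the nuclear share was 1.35%, 1.58% and 1.75% in knockout libraries and 1.33%, 1.32% and 1.22% in those labelled Sca1-positive. Erythroid markers were lower for 4 of 6 tested, where 0.0368% of genes were. They summed to 157 to 246 CPM in knockout libraries and 1241 to 1663 CPM in those labelled Sca1-positive. Cartilage markers summed to 793, 493 and 435 CPM in knockout libraries and 928, 6401 and 7606 CPM in those labelled Sca1-positive, with 0 of 10 called. Bone markers summed to 277, 127 and 238 CPM and to 82.7, 6109 and 5691 CPM in the same groups, with 0 of 7 called. Fibroblast progenitor markers summed to 5751, 6627 and 7064 CPM and to 4230, 1209 and 1454 CPM, with 0 of 6 called. In each of these lists the Ly6a-high replicate 1 lay nearest to the knockout libraries. Against replicates 2 and 3 the deletion cannot be told apart from this difference. The part of the markers in the results was not tested. The 3 tables share libraries labelled Sca1-positive, so their results are not independent of each other.

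Copies of members elsewhere in the genome limit how reads can be assigned. In GENCODE vM21 on GRCm38, 23 members had a copy at least 97% identical over at least 150 bases, 16 of them nuclear and 7 mitochondrial, with 33 copies in all. Of these copies 8, 4 and 5 were counted in the age, Sca1 and knockout tables. Gm10221, which matches Atp5l, a membrane subunit of ATP synthase, at 100% over 309 bases, had 0, 0 and 0 counts in adult libraries and 893, 889 and 566 counts in perinatal libraries. It had 1029, 938 and 2012 counts in knockout libraries and 0, 890 and 546 counts in those labelled Sca1-positive. With copies summed into their members, the adult log2 fold change of Atp5l was -1.66, against -1.25 alone, and that of Cox7c -1.63, against -2.16 alone, and no call of the members changed.

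All 7 mitochondrial members with a copy, mt-Nd3, mt-Nd4, mt-Nd4l, mt-Co1, mt-Co2, mt-Co3 and mt-Atp6, match a stretch of chromosome 1 from 24611535 to 24616197, an insertion of mitochondrial DNA in the nuclear genome, whose copies were not analysed here. The stretch is shown because it differs by few bases. Over 483 aligned bases of mt-Co1 and its copy Gm29216 there was 1 difference, A1066T, counted from 1 at the 5′ end of the mt-Co1 transcript with the mitochondrial base first, and capitals mark it.
mt-Co1: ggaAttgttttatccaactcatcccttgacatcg
Gm29216: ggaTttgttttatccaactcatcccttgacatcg
mt-Nd2, mt-Nd1, mt-Nd5, mt-Nd6, mt-Cytb and mt-Atp8 had no such copy. The members called higher and lower in adult cells thus include genes with a chromosome 1 copy, mt-Nd3, mt-Nd4l, mt-Co3 and mt-Atp6, and genes without.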

How the data were processed

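RNA of 11 samples in 4 groups was analysed from 3 deposited tables, each by itself. The submitters' processing notes name Trimmomatic 0.32, DESeq2 and the mm10 build. The sources used here do not give an aligner, counter, annotation or use of strand, so reads of overlapping genes on opposite strands cannot be told apart. The authors deposited whole-number counts per gene in all tables, TPM in the age and Sca1 tables, and log2 fold changes with p-values in each, per the file headers. Columns headed as TPM in the knockout table hold values that look like log2 levels and entered no test. A further 12 numeric columns were mapped to no sample and not used. The authors' log2 fold changes are Sca1-positive over the other group in the age and Sca1 tables, and knockout over Sca1-positive in the knockout table.

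Members and lists were chosen with earlier results of these data known. Counts were tested with edgeR 4.0.16 in R 4.3.3 (filterByExpr, TMM, robust quasi-likelihood fit, group only), with Benjamini-Hochberg adjustment over all genes tested in a table, called at an adjusted p under 0.05. Named genes were all mitochondrial members, the isoform list, and per complex the up to 4 called members of smallest adjusted p whose groups did not overlap and whose mean level was 5 or more in log2 CPM. Where a complex had none called, its 2 most abundant members were named, along with up to 3 called against the main direction and up to 3 called genes per related list (else its 2 most abundant). Others in the text were chosen after their values were seen. Copies were found with BLAST 2.17.0 on GENCODE vM21 transcripts. The fit was tested on simulated counts. Alternatives were other scalings, DESeq2 1.42.0, no low-count filter, genes at 0 in a group left out, the replicate block, copies summed, and libraries left out. The values of 1 member are not reported here.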

Additional observations from a re-analysis of the deposited data

Results flagged for a closer look

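Each of these 4 values is from a counted row outside the name rule that copies a member, and each was picked out because every library of the group lay above the libraries labelled Sca1-positive. Ndufa12-ps, a copy of the complex I gene Ndufa12, had a mean of 3.593 CPM in adult libraries, with 57, 70 and 45 counts in adult libraries and 0, 0 and 0 counts in perinatal libraries, whereas Ndufa12 itself was lower in adult libraries. Ndufs5-ps, a copy of Ndufs5, had a mean of 4.315 CPM in adult libraries, with 74, 85 and 49 counts in adult libraries and 0, 2 and 0 counts in perinatal libraries. Gm10039, a copy of Atp5g1 at 99.757% over 411 bases, had a mean of 35.69 CPM under the Sca1-negative label. Its values were 37.8 and 33.5 CPM (577 and 464 counts) there, against 33.3 and 30.4 CPM (577 and 439 counts) under the Sca1-positive label. The groups were thus barely apart. Gm12338, a copy of Cox7c at 100% over 192 bases, had a mean of 51.33 CPM in the knockout libraries, with 781, 782 and 1845 counts in knockout libraries and 0, 416 and 366 counts in those labelled Sca1-positive.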

How the results depend on the processing

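In the adult comparison, leaving out single libraries gave 74 to 77 nuclear members lower and 0 to 1 higher, the 1 being Cox7a2l without perinatal replicate 1. The nuclear median was -1.42 with scaling by library totals alone, which moved the all-gene median to 0.21, -1.97 without perinatal libraries 2 and 3, and -1.78 to -1.49 without single libraries. Mitochondrial members lower numbered 3 to 5 and higher 5 without single libraries, where 36.5% to 42.1% of genes were lower and 33.8% to 39.3% higher. Their median was 0.42 with totals alone and -0.10 to 0.34 without single libraries. Signs of uncalled genes turned: with totals alone mt-Co1 (0.0625), Sdha (0.23) and Atp5g3 (0.20), with no filter Sdha (0.018), and without perinatal libraries 2 and 3 Ndufs1 (-0.0513), Sdha (0.017) and Cox7a2l (-0.27). Without single libraries mt-Atp8 ran from -0.0987 to 0.37, Sdha from -0.0434 to 0.0245, Cox7a2l from -0.0578 to 0.26 and Atp5g3 from -0.11 to 0.0165. In the knockout mt-Nd4l was at 0.0339 without the libraries labelled Sca1-positive 2 and 3. The cause was not tested.

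In the Sca1 comparison DESeq2 called 1 nuclear member higher. Leaving out single libraries gave 0 to 47 higher (47 without Sca1-negative replicate 3) and 1 to 2 lower, and 0 to 1 mitochondrial members higher and 0 to 3 lower, with medians of 0.08 to 0.45 and -0.20 to 0.07. In the knockout DESeq2 called 6 nuclear members higher and 1 lower. Leaving out single libraries gave 0 to 26 nuclear members higher (26 without knockout replicate 1) and 0 to 1 lower. Of the mitochondrial members, 0 to 4 were higher and 0 lower. Without knockout replicate 1, 11% of genes were called higher and 10.5% lower. Without the library labelled Sca1-positive replicate 1 these shares were 0.68% and 1.51%. The medians were 0.25 to 0.58 for nuclear and 0.09 to 0.52 for mitochondrial members. The shared replicate numbers were not shown to pair samples. Deviations of same-numbered libraries correlated across genes at -0.019, -0.017 and 0.185 in the age table, 0.303 in the Sca1 table and 0.188, 0.118 and 0.0543 in the knockout table, and not every library correlated best with its own number. With the replicate block, 4 nuclear members were called higher in the Sca1 comparison, against 0 without it: Uqcr11 (adjusted p = 0.0195), Cox7a1 (0.0209), Cox6a2 (0.0362) and Ndufb7 (0.048, edgeR), where 4.26% of all genes were called higher with the block and 1.63% without it. In the adult comparison 77 were lower with the block, where 38.5% of genes were, against 76, and 0 members were called in the knockout, where 0% of genes were. Summing copies, chosen after seeing the data, changed no call. Depth limits Cox8b and Ppargc1a in adult libraries, which lie at or near the limit of 3 counts.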
